A study of Mus musculus with 6 samples.

Results

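The transient receptor potential melastatin (TRPM) genes encode cation channels of the plasma and organelle membranes, and 5 of them, Trpm2, Trpm3, Trpm4, Trpm6 and Trpm7, were followed here in mouse kidneys injured by cisplatin. They were taken by gene name from 54532 genes in the deposited tables, and each name occurred in 1 row. All 6 kidneys came from C57BL/6J mice given 18 mg/kg cisplatin, a platinum drug that injures renal tubules, and were collected 72 h later. The genotypes were WT (replicates 1, 2 and 3) and Trpm2-/- (replicates 1, 2 and 4). The mice were aged 6 to 8 weeks by the sample labels and older by the study's methods. By those methods WT mice were bought from Shanghai SLAC Laboratory, and the Trpm2-/- line came from the University of Leeds. Kidneys without cisplatin were not analysed here, so each value describes the injured kidney and none describes a response to the drug.

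TRPM channels assemble as tetramers, and the family joins members with very different gates. TRPM2 opens when ADP-ribose and Ca2+ bind inside the cell, which couples it to oxidative stress, and TRPM4 is opened by intracellular Ca2+ but passes only monovalent cations. TRPM6 and TRPM7 carry a protein kinase fused to the channel and conduct Mg2+ and Ca2+. In the kidney, TRPM6 is known as the entry route for Mg2+ in the distal convoluted tubule, where urinary magnesium loss is set, whereas TRPM7 is present in nearly every cell.

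The Trpm2-/- allele lacks exons 17 and 18. The study describes the protein left as missing certain transmembrane domains, which it gives by number, and as without channel function. The gene (ENSMUSG00000009292) lies on the minus strand of chromosome 10 at 77907722 to 77970563 of GRCm38. Both candidate exon pairs are shown because the deleted length decides what a gene-level count can say about the knockout. Counted from the first exon of the principal GENCODE M21 transcript, exon 17 (113 bases, 77933574 to 77933686) and exon 18 (214 bases, 77932135 to 77932348) read as follows on the coding strand.
Trpm2 exon 17: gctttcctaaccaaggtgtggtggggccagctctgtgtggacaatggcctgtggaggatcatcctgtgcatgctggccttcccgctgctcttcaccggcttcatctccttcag
Trpm2 exon 18: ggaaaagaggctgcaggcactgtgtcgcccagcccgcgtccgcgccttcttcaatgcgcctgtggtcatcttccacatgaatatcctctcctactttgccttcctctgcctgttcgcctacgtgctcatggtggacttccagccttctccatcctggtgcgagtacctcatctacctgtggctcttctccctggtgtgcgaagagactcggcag
Translation begins in exon 3, and the numbering behind the allele was not given in the sources used here. The exons were not translated here, so neither pair was matched to the transmembrane domains that the study names. Counted from the first coding exon, the pair would instead be transcript exons 19 (119 bases) and 20 (133 bases), within chr10:77929829-77930654.
Trpm2 exon 19: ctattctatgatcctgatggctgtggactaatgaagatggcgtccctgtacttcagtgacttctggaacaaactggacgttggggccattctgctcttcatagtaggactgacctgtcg
Trpm2 exon 20: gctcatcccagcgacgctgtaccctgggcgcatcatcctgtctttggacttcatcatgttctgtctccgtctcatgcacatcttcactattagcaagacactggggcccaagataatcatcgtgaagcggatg
Under the first numbering the deleted pair makes up 327 bases, or 2.62% of the 12459 exonic bases over which the Trpm2 count was taken. Under the second it makes up 252 bases, or 2.02%. If reads fell evenly along the gene, 0.971 or 0.748 of the 37 Trpm2 reads in the WT libraries together would lie in the deleted bases. The Trpm2 count therefore does not check the genotype labels.

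Trpm2 was sparse in every library, and its count was not lower in the knockout. The WT libraries held 5, 5 and 27 Trpm2 reads and the Trpm2-/- libraries (replicates 1, 2 and 4) held 10, 16 and 20. WT 3 was the highest of all 6 and the other WT libraries were the lowest, so the genotypes overlapped. As CPM, counts per 1000000 counted reads scaled by the trimmed mean of M values (TMM), Trpm2 was 0.762 ± 0.775 (SD, n = 3) in WT and 0.983 ± 0.330 (SD, n = 3) in Trpm2-/- kidneys. The log2 fold change, always Trpm2-/- against WT, was 0.36 with a standard error of 0.675, a 95% interval from -1.16 to 1.87 and an adjusted p of 0.776 (edgeR, quasi-likelihood test, Benjamini-Hochberg over 15816 genes). Reads were thus assigned to Trpm2 in each Trpm2-/- kidney, and at this depth a difference within the bounds of that interval was not resolved.

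The spread among WT kidneys was what limited Trpm2. The exact (Clopper-Pearson) 95% interval of its level before TMM scaling, which covers counting error only, was 0.102 to 0.730 CPM in WT 1 and 1.04 to 2.29 CPM in WT 3, and these intervals did not meet. The coefficient of variation among WT libraries was 102%, against 28.5% from counting alone, and among Trpm2-/- libraries it was 33.6% against 25.5%. One kidney therefore decided the fold change. Without WT 3 it was 1.61 (adjusted p = 0.236), and without WT 1 or WT 2 it was -0.024 or -0.0064. WT 3 also had the highest level of all 4 markers of the thick ascending limb, at a summed 2163 CPM against 196 to 1179 CPM in the other 5 libraries. It was highest for 3 of 7 proximal tubule markers, at a summed 2907 CPM against 498 to 2547 CPM. For macrophages it was highest for 3 of 6 markers, but their sum, 153 CPM, lay within the 145 to 234 CPM of the others. The part of these cells in its Trpm2 count was not tested.

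Of the 5 channels, Trpm7 was the most abundant in each kidney. Levels between genes are compared as deposited FPKM, the fragment count divided by gene length and by a divisor for each library. Trpm7 was at 5.84, 5.79 and 6.34 FPKM in WT and at 7.66, 7.04 and 9.53 FPKM in Trpm2-/- kidneys. Trpm4 was at 1.37, 1.32 and 1.39 FPKM in WT and at 0.782, 1.21 and 1.10 FPKM in Trpm2-/- kidneys. Trpm6 was at 0.898, 0.985 and 0.674 FPKM in WT and at 1.57, 0.864 and 1.64 FPKM in Trpm2-/- kidneys. Trpm7, the broadly expressed channel kinase, thus stood above Trpm4 and Trpm6 in 6 of 6 libraries. Trpm4 and Trpm6 were neighbours whose order depended on the kidney, Trpm4 being the higher in 4 of 6.

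Trpm3 and Trpm2 formed a low tier, below the others in each library. Trpm3, a channel known for opening to heat and to the steroid pregnenolone sulfate, was at 0.0805, 0.105 and 0.0531 FPKM in WT and at 0.0134, 0.0223 and 0.117 FPKM in Trpm2-/- kidneys. Trpm2 was at 0.0217, 0.0226 and 0.116 FPKM in WT and at 0.0433, 0.0769 and 0.0888 FPKM in Trpm2-/- kidneys. Trpm3 was the higher of the pair in 3 of 6 libraries, so their order was not resolved.

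**Figure D1:**
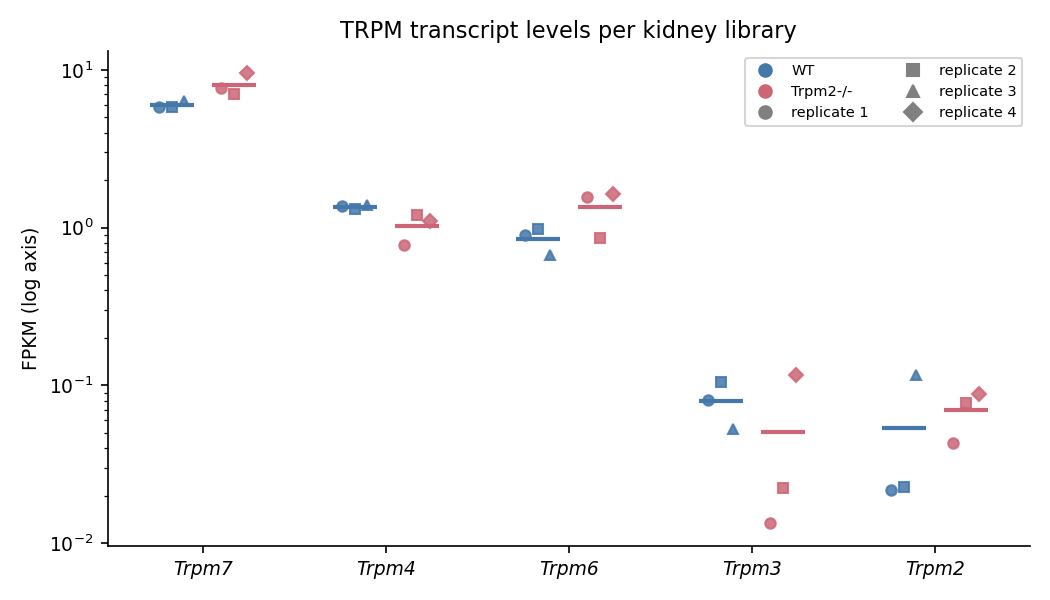
Deposited FPKM on a log axis for each of the 5 TRPM genes in each kidney library, with WT in blue, Trpm2-/- in red, a marker shape per replicate number and a line at each genotype's mean. Trpm7 lies above all other members, Trpm4 and Trpm6 lie together near 1 FPKM, and Trpm3 and Trpm2 lie near or below 0.1 FPKM with widely scattered libraries.

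None of the 5 members passed the adjusted threshold between genotypes. All 5 had passed the filter on low counts (filterByExpr), 0 of 5 were called at an adjusted p under 0.05 and 0 of 5 met the study's rule of an absolute log2 fold change above 1 with an unadjusted p under 0.05. Over all 15816 genes tested, 12.0% were called at the adjusted threshold, with 4.74% higher and 7.28% lower in Trpm2-/- kidneys, and 7.6% met the study's rule, 3.5% higher and 4.1% lower. With 5 genes, such a background corresponds to fewer than 1 call, so a count of 0 does not set the family apart. At an unadjusted p under 0.05 edgeR gave 2 of 5 (Trpm6 and Trpm7), DESeq2 2, limma-voom 2 (Trpm4 and Trpm7) and limma on log2(FPKM + 1) 1, and each of these tools gave 0 after adjustment. The median log2 fold change of the 5 was 0.36, with 3 above and 2 below 0, beside a median of 0.019 over all genes tested.

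**Figure D2:**
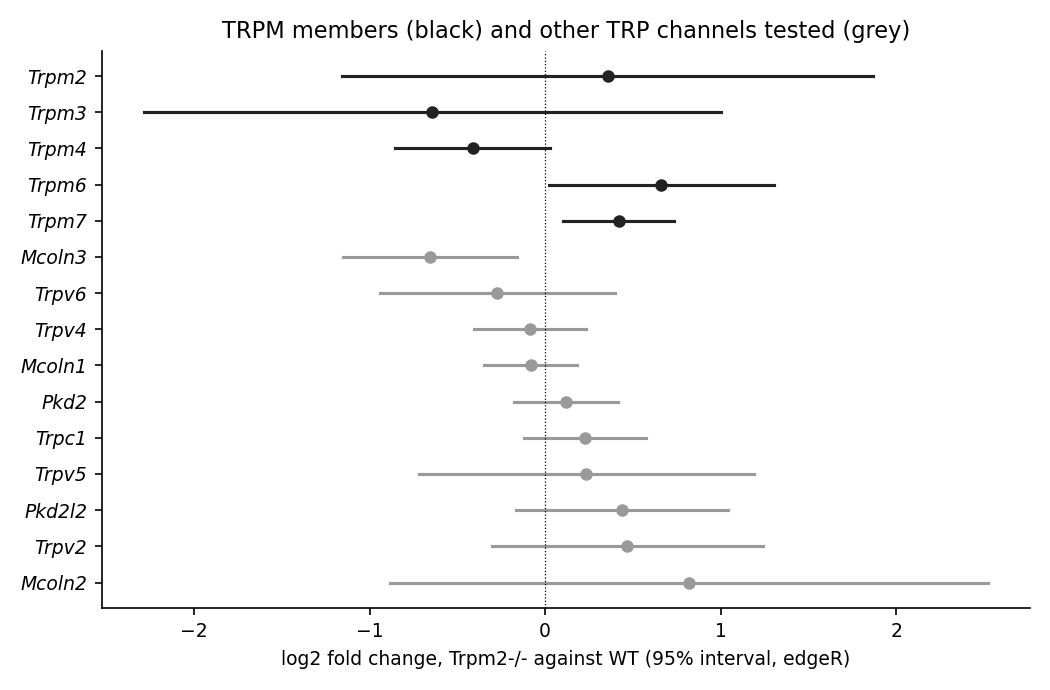
Log2 fold change of Trpm2-/- against WT (horizontal axis) with its 95% interval from edgeR for the 5 TRPM members in black and the 10 tested genes of the other TRP channel families in grey. The intervals of Trpm7 and Trpm6 lie above 0, those of Trpm2, Trpm3 and Trpm4 include 0, and no interval is adjusted for the number of genes.

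Trpm7 and Trpm6, the channel kinases, had fold changes above 0. Trpm7 (ENSMUSG00000027365, chromosome 2, 126791565 to 126876230, minus strand) had 1221, 1165 and 1342 reads in WT and 1607, 1331 and 1951 in Trpm2-/- libraries. Scaled, it was at 75.3, 74.9 and 82.3 CPM in WT and at 98.4, 90.9 and 121 CPM in Trpm2-/- kidneys. Every Trpm2-/- kidney was above every WT kidney, an order found in this direction for 16.7% of all genes tested. The log2 fold change was 0.42 with a standard error of 0.142, a 95% interval from 0.10 to 0.74 and an adjusted p of 0.0858. The difference was carried in part by Trpm2-/- 4, the highest library, without which the fold change was 0.30.

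Trpm2-/- 4 also stood apart in its cell markers. It had the highest level of 4 of 4 podocyte markers, at a summed 385 CPM against 95.1 to 136 CPM elsewhere, of 4 of 4 fibroblast markers, at 97.8 CPM against 26.7 to 57.2 CPM, and of 3 of 5 endothelial markers, at 197 CPM against 59.6 to 138 CPM. The part of these cells in the Trpm7 level was not tested. In whole-kidney RNA, more cells of a type and more transcript per cell cannot be told apart.

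The spread of Trpm7 exceeded counting error in both genotypes. Its coefficient of variation was 5.41% among WT libraries, against 2.84% from counting, and 15.4% among Trpm2-/- libraries, against 2.48%. For this gene the spread between kidneys, and not counting, was the larger part of the error.

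Trpm6 (ENSMUSG00000024727, chromosome 19, 18749983 to 18892510, plus strand) had 108, 114 and 82 reads in WT and 190, 94 and 193 in Trpm2-/- libraries. The scaled levels were 6.66, 7.32 and 5.03 CPM in WT and 11.6, 6.42 and 12.0 CPM in Trpm2-/- kidneys. Trpm2-/- 1 and 4 lay above every WT kidney, while Trpm2-/- 2 lay within the WT range, so the genotypes overlapped. The log2 fold change was 0.66 with a standard error of 0.286, a 95% interval from 0.022 to 1.30 and an adjusted p of 0.163. Without Trpm2-/- 2 it was 0.90 with an adjusted p of 0.0461, the only setting among those run in which any member was called.

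Markers of the distal convoluted tubule, the site of TRPM6, also differed between kidneys. Its 6 markers (Slc12a3, Pvalb, Calb1, Egf, Sgms2 and Klhl3) summed to 416, 546 and 409 CPM in WT and to 427, 225 and 534 CPM in Trpm2-/- kidneys. Trpm2-/- 2, the library in which Trpm6 was not raised, had the lowest level of 4 of the 6, and Pvalb had no read in it. Of the 5 markers that passed the filter, 0 were called in either direction, beside 12.0% of all genes tested. Their median log2 fold change was -0.48, with 4 below 0 and 1 that met the study's rule as lower. Set against all 6 markers, Trpm6 amounted to 1.60, 1.34 and 1.23% of their summed CPM in WT and to 2.73, 2.86 and 2.25% in Trpm2-/- kidneys. This ratio, chosen after the values were seen and not tested, did not overlap between genotypes, as was the case in the same direction for 11.1% of all genes tested divided by the same sum. Trpm6 was also separate against 4 of the 5 markers with reads in every library, taken singly, Sgms2 being the exception. These ratios all share the Trpm6 level, lower marker levels raise them too, and no share over all genes was computed for them.

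**Figure D3:**
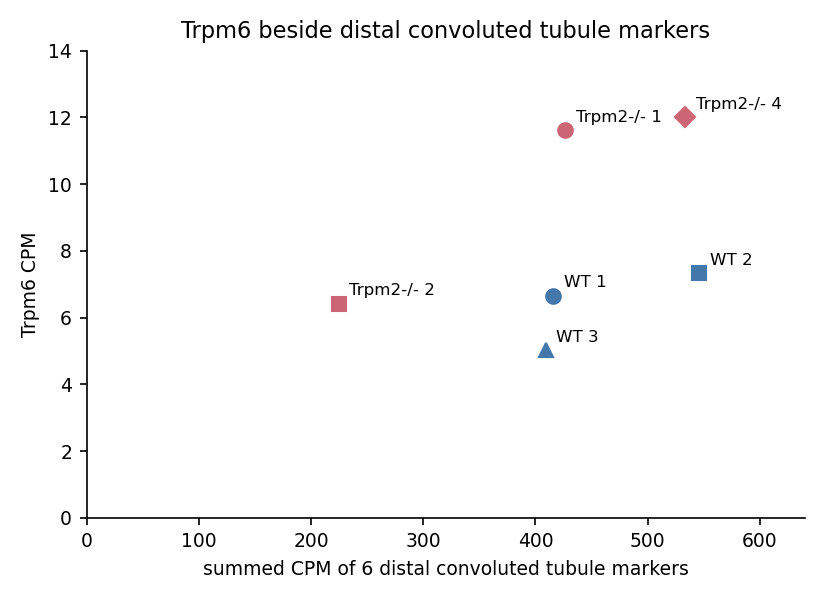
Trpm6 level (vertical axis, CPM) against the summed CPM of the 6 distal convoluted tubule markers (horizontal axis) in each of the 6 kidneys, with WT in blue and Trpm2-/- in red. Trpm2-/- 2 has the lowest marker sum, 225 CPM, and a Trpm6 level of 6.42 CPM within the WT range.

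Trpm4 had a fold change below 0. The gene (ENSMUSG00000038260, chromosome 7, 45302632 to 45333780, minus strand) encodes the channel that lets Na+ in when intracellular Ca2+ rises. It had 274, 254 and 281 reads in WT and 157, 219 and 215 in Trpm2-/- libraries, or 16.9, 16.3 and 17.2 CPM against 9.61, 15.0 and 13.4 CPM. Every Trpm2-/- kidney was below every WT kidney, an order found in this direction for 16.8% of all genes tested. The log2 fold change was -0.41 with a standard error of 0.197, a 95% interval from -0.85 to 0.029 and an adjusted p of 0.205.

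The spread of Trpm4 was wider among Trpm2-/- than among WT kidneys, a difference that was not tested. The coefficient of variation was 2.76% among WT libraries, against 6.09% from counting alone, and 21.7% among Trpm2-/- libraries against 7.12% from counting. Trpm2-/- 1 was the lowest, and without it the fold change was -0.25. That library also had the lowest level of all 4 thick ascending limb markers and of 5 of 7 collecting duct markers, at a summed 196 CPM and 758 CPM, and their part in its Trpm4 level was not tested. A ribosomal protein pseudogene, Rpl14-ps1, lies within the Trpm4 span on the opposite strand and shares no exonic base with it.

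The fold change of Trpm3 had the widest interval of the 5. The gene (ENSMUSG00000052387, chromosome 19, 22139119 to 22989884, plus strand) had 12, 15 and 8 reads in WT and 2, 3 and 17 in Trpm2-/- libraries. The levels were 0.740, 0.964 and 0.491 CPM in WT and 0.122, 0.205 and 1.06 CPM in Trpm2-/- kidneys. Trpm2-/- 1 and 2 were the lowest of the 6 and Trpm2-/- 4 was the highest, so the genotypes overlapped. The log2 fold change was -0.64 with a standard error of 0.733, a 95% interval from -2.29 to 1.00 and an adjusted p of 0.612, so neither direction nor size was resolved. Without Trpm2-/- 4 it was -2.11 (adjusted p = 0.0924), without Trpm2-/- 1 it was -0.19 (adjusted p = 0.896), without Trpm2-/- 2 it was -0.31 (adjusted p = 0.831) and without WT 2 it was -0.40 (adjusted p = 0.851).

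The spread of Trpm3 among Trpm2-/- kidneys was wider than counting error. Before TMM scaling its exact 95% interval was 0.0150 to 0.447 CPM in Trpm2-/- 1 and 0.648 to 1.78 CPM in Trpm2-/- 4, which did not meet. The coefficient of variation among Trpm2-/- libraries was 112%, against 36.9% from counting. Trpm2-/- 4 is the library with the high podocyte, fibroblast and endothelial marker levels given above, and their part in its Trpm3 count was not tested. The microRNA gene Mir204 lies on the same strand within the Trpm3 span, and it had no read in any library.

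**Figure D4:**
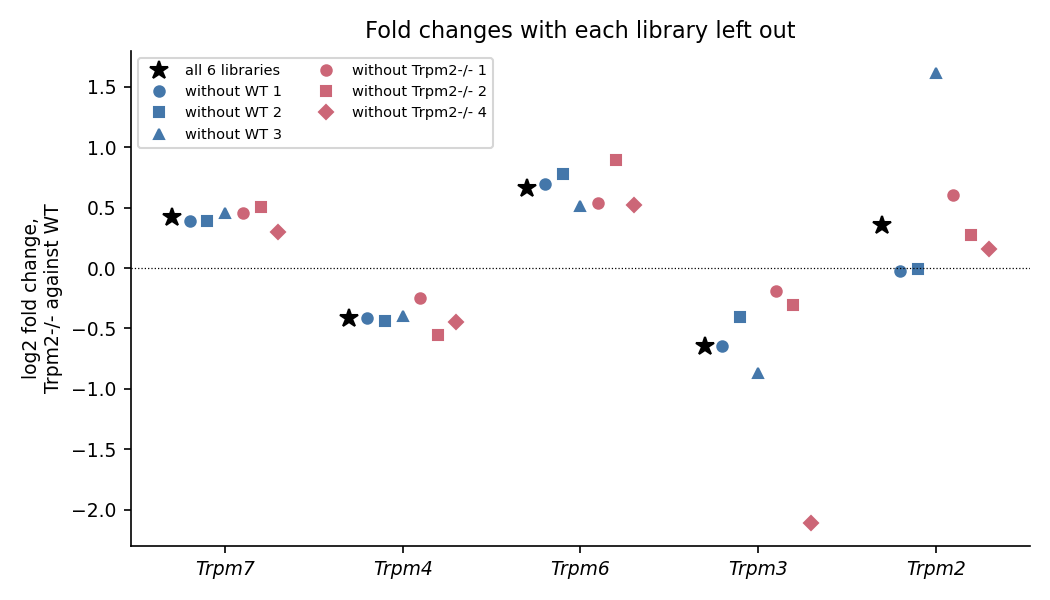
Log2 fold change of Trpm2-/- against WT (vertical axis) for each TRPM member with all 6 libraries (star) and with each library left out in turn (blue for a WT library, red for a Trpm2-/- library). Trpm7, Trpm4 and Trpm6 keep their sign, Trpm3 moves to -2.11 without Trpm2-/- 4, and Trpm2 moves between -0.024 and 1.61.

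The remaining TRPM genes had few or no reads. Trpm1, known from retinal ON bipolar cells and melanocytes, had 9, 5 and 9 reads in WT and 0, 7 and 12 in Trpm2-/- libraries, where the count of 0, with 3 reads taken as the floor, allows a level of up to 0.186 CPM. Trpm5, the channel of taste and tuft cells, had 14, 10 and 8 reads in WT and 10, 5 and 10 in Trpm2-/- libraries. Its mean level, 0.0911 ± 0.0259 FPKM in WT and 0.0725 ± 0.0223 FPKM in Trpm2-/- kidneys (SD, n = 3), lay within the range of the Trpm3 and Trpm2 libraries. Trpm8, the cold and menthol receptor, had 0, 0 and 1 reads in WT and 0, 1 and 0 in Trpm2-/- libraries. These 3 genes did not pass the filter and were not tested.

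Within the summed FPKM of the 5 members, the share of Trpm4 was lower and that of Trpm7 higher in the knockout. The sum was 8.21, 8.22 and 8.58 FPKM in WT and 10.1, 9.21 and 12.5 FPKM in Trpm2-/- kidneys. Trpm7 made up 71.8 ± 1.88% (SD, n = 3) in WT and 76.3 ± 0.211% (SD, n = 3) in Trpm2-/- kidneys. Trpm4 made up 16.3 ± 0.334% (SD, n = 3) in WT and 9.90 ± 2.85% (SD, n = 3) in Trpm2-/- kidneys. For both genes no share of one genotype fell within the range of the other, which largely restates that their CPM levels did not overlap, in opposite directions. Trpm6 made up 10.3 ± 2.14% in WT and 12.7 ± 3.15% in Trpm2-/- kidneys (SD, n = 3) and overlapped, and Trpm3 and Trpm2 each stayed below 1% on average.

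The ratio of Trpm7 to Trpm4 puts a size on this within each library. It was 4.26, 4.39 and 4.57 in WT and 9.79, 5.81 and 8.68 in Trpm2-/- kidneys. That no Trpm2-/- ratio fell in the WT range follows from the levels of both genes, which were separated already. The ratio of Trpm7 to Trpm6 ranged from 5.88 to 9.41 in WT and from 4.86 to 8.14 in Trpm2-/- kidneys, with overlap. These shares and ratios are descriptions of the same counts as the fold changes and were not tested.

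**Figure D5:**
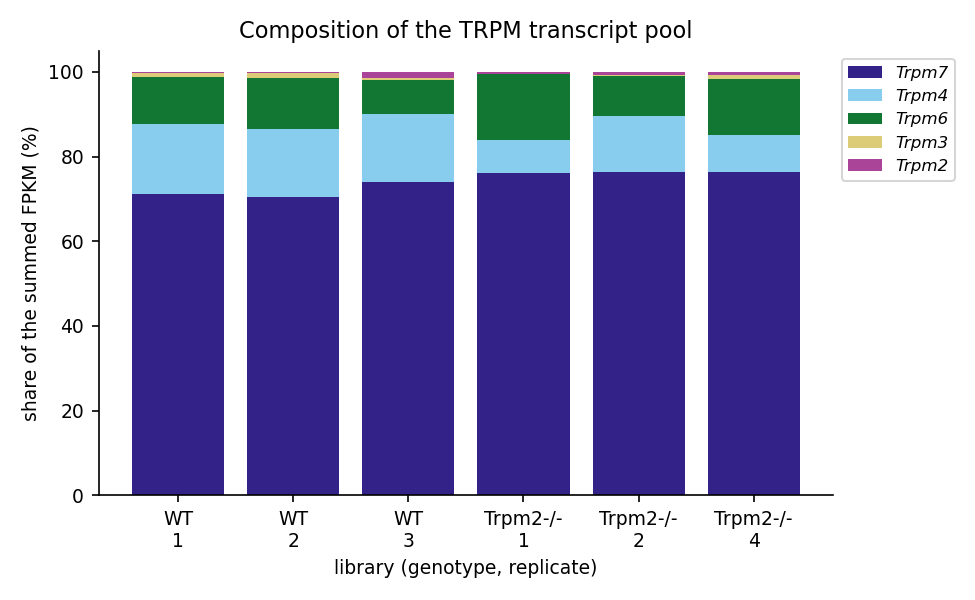
Share of the summed FPKM of the 5 TRPM members (vertical axis, percent) held by each member in each of the 6 kidney libraries, 1 bar per library. Trpm7 fills 70.4 to 76.4% of each bar, and the Trpm4 segment is 16.0 to 16.7% in WT and 7.76 to 13.1% in Trpm2-/- kidneys.

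The gene length behind FPKM affected the comparison between members. For Trpm2, Trpm4 and Trpm7 the length in the table (12459, 10826 and 11315 bases) equals the union of all annotated exons, whereas their principal transcripts have 7274, 4234 and 7107 bases. For Trpm3 it is 8061 bases, against 24437 in the union of its annotated exons and 5192 in the principal transcript. For Trpm6 the length in the table, 6508 bases, is below its union of 7719 and close to the 6509 bases of its principal transcript. The FPKM values of the members therefore rest on unlike definitions of length, which bears on their order, that of Trpm3 and Trpm2 included. Per base of principal transcript, a scale added after the data were seen, Trpm4 lay above Trpm6 in 6 of 6 libraries and made up 24.7% in WT and 15.6% in Trpm2-/- kidneys. Trpm7 remained the most abundant member, at 67.7% and 75.3%.

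Identical stretches shared with other genes were found in Trpm2 and Trpm3. Of 75-base windows along all annotated transcripts, 63 of 12555 in Trpm2 (0.502%) occurred on either strand of another annotated gene, and 409 of 25098 in Trpm3 (1.63%). For Trpm3 those genes were C330002G04Rik and Gm27151. Gm27151 lies within the Trpm3 span on the opposite strand, overlaps 277 of its exonic bases and had no read in any library. Windows in that overlap are the same locus, and their part in the 409 was not counted. Trpm4, Trpm6 and Trpm7 had 0 such windows. The search was for identical stretches, and copies with scattered mismatches were not looked for.

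The members did not vary together as a family. Over the 6 libraries, which share genotype and library effects, the Pearson correlation of log2 CPM was -0.81 between Trpm4 and Trpm6, 0.75 between Trpm6 and Trpm7 and -0.61 between Trpm4 and Trpm7. Trpm2 was closest to Trpm7 (0.56) and Trpm3 to Trpm4 (0.59). Each value rests on 6 points and is a description.

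The genes most like each member in pattern over the 6 libraries differed from member to member. For Trpm7 they were Ppig (r = 0.999), a nuclear cyclophilin, Amn1 (0.992) and Sh2b3 (0.992), an adaptor of cytokine receptor signaling. For Trpm6 they were Nkapd1 (0.996), Eif1a (0.993), a translation initiation factor, and Cav2 (0.991), a caveolin. For Trpm4 they were Mtfp1 (0.997), a mitochondrial fission protein, Kif5a (0.997), a kinesin heavy chain, and Rps6kb2 (0.996), an S6 kinase. The sparse members had lower values, with Serping1 (0.989), Fmnl1 (0.983) and Hsd11b2 (0.980) nearest to Trpm3 and Ccdc30 (0.980), Xaf1 (0.980) and Dph2 (0.978) nearest to Trpm2. These are the highest correlations, over 6 points each, among the 15816 genes tested once predicted and clone-named genes were left out. A gene left out may have a higher value.

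No gene of the other TRP families was called with all 6 libraries. Of 20 listed TRPC, TRPV, TRPA, mucolipin and polycystin channel genes 10 were tested. By edgeR 0 were called at the adjusted threshold (1 at an unadjusted p under 0.05), beside 12.0% of all genes tested. Their median log2 fold change was 0.17. The smallest p belonged to Mcoln3, a lysosomal cation channel, which was at 14.4 ± 3.25 CPM in WT and 9.14 ± 1.03 CPM in Trpm2-/- kidneys (SD, n = 3; log2 fold change -0.66, adjusted p = 0.0841). Without WT 1 its adjusted p was 0.0456. Trpv5, the Ca2+ entry channel of the distal nephron, named after its values were seen, was at 14.9, 20.5 and 12.9 CPM in WT and at 17.5, 7.31 and 32.0 CPM in Trpm2-/- kidneys. In Trpm2-/- 2 it was below every WT library, whereas Trpm6 there lay within the WT range. Both were highest in Trpm2-/- 4. Trpv6, also named after its values were seen, was at 11.0, 6.68 and 8.53 CPM in WT and at 4.65, 8.19 and 8.90 CPM in Trpm2-/- kidneys.

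Among the relatives and substrates of the channel kinases, single genes were called, as were 12.0% of all genes tested. The alpha-kinases other than Trpm6 and Trpm7 gave 2 tested genes, of which Alpk1, the cytosolic sensor of the bacterial sugar ADP-heptose, rose. It was at 2.41, 0.900 and 2.70 CPM in WT and at 7.90, 6.08 and 6.16 CPM in Trpm2-/- kidneys (log2 fold change 1.74 with a standard error of 0.390, adjusted p = 0.0210), and without Trpm2-/- 1 the adjusted p was 0.0682. Of 6 known substrates of the TRPM7 kinase, 1 rose, 1 fell and 4 did not pass the test, with a median of 0.35. Over all genes tested 4.74% were called higher and 7.28% lower, so these few calls do not set the lists apart. Myh14, a nonmuscle myosin heavy chain, fell from 57.4 ± 4.31 CPM to 19.6 ± 1.65 CPM (SD, n = 3; log2 fold change -1.55, adjusted p = 0.00126). Anxa1, annexin A1, rose from 13.7 ± 3.57 CPM to 22.9 ± 0.576 CPM (SD, n = 3; log2 fold change 0.74, adjusted p = 0.0403). This call was lost when the shared replicate number entered the fit as a block (the replicate block) and without any 1 library other than WT 1, at adjusted p from 0.0644 to 0.176.

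Genes of renal magnesium handling, the setting in which TRPM6 works, held calls in both directions. Of 34 listed genes 32 were tested, 6 fell and 1 rose at the adjusted threshold, which over all genes tested 7.28% passed as lower and 4.74% as higher. The median log2 fold change was -0.20 with 9 above and 23 below 0, beside 0.019 over all genes tested, of which 48.4% were below 0. Umod, the uromodulin of the thick ascending limb, fell from 943 ± 513 CPM to 240 ± 167 CPM (SD, n = 3; log2 fold change -1.97, adjusted p = 0.0326). Without WT 1, WT 3, Trpm2-/- 1 or Trpm2-/- 2 its adjusted p was 0.0514 to 0.118. Cldn10, a claudin of tight junctions counted over all its transcripts, fell from 78.0 ± 33.9 CPM to 24.6 ± 7.06 CPM (SD, n = 3, log2 fold change -1.67, adjusted p = 0.0104). Kcnj16, a basolateral K+ channel subunit, had a log2 fold change of -0.89 (adjusted p = 0.00853), and Cnnm1, of the CNNM family of magnesium transport proteins, of -0.95 (adjusted p = 0.0143, and 0.0572 without WT 2). Ptp4a3, a phosphatase that binds CNNM proteins, rose with a log2 fold change of 0.85 (adjusted p = 0.0180, and 0.0568 to 0.0856 without any 1 WT library). Tubule markers moved beside this list. The 7 proximal tubule markers all fell, with sums of 2420 to 2907 CPM in WT and 498 to 1026 CPM in Trpm2-/- kidneys, and the 4 thick ascending limb markers summed to 716 to 2163 CPM and 196 to 835 CPM with 1 called lower. Of the thick ascending limb markers Umod, Slc12a1 and Cldn16 are themselves magnesium genes of the list, and the remaining one, Kcnj1, was at 90.6 ± 33.3 CPM in WT and 58.5 ± 30.6 CPM in Trpm2-/- kidneys (SD, n = 3). The proximal tubule markers share no gene with the list. The part of tubule cell content in the magnesium genes was not tested.

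Genes of ADP-ribose metabolism, which makes and removes the TRPM2 ligand, gave calls in 1 direction. Of 10 tested genes 0 rose and 2 fell, with a median of -0.12, beside 4.74% higher and 7.28% lower over all genes tested. Macrod1, a mitochondrial ADP-ribosyl hydrolase, fell from 30.4 ± 4.62 CPM to 13.6 ± 1.67 CPM (SD, n = 3; log2 fold change -1.16, adjusted p = 0.00408). Oard1, a nuclear ADP-ribosyl hydrolase, had a log2 fold change of -0.45 (adjusted p = 0.0478), lost with upper-quartile scaling, with the replicate block and without any 1 library other than Trpm2-/- 2, at adjusted p from 0.0609 to 0.235.

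The libraries held 14053307 to 17150089 counted reads, and 3 reads, taken as the floor, correspond to 0.175 to 0.213 CPM. Transcripts of the mitochondrial genome took 4.43 to 4.72% of reads in WT and 7.91 to 11.0% in Trpm2-/- libraries, and leaving them out of the fit brought no member past the threshold. The labels do not say whether mice of a genotype shared a litter or cage, so the p-values measure the spread among these 6 kidneys. Each genotype had its own stated source, so a difference of genotype and a difference of colony cannot be told apart.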

How the data were processed

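Kidney RNA from 6 cisplatin-treated mice (3 per genotype) was isolated with Trizol, made into NEBNext Ultra II libraries and sequenced at Novogene. The authors deposited raw read counts per gene and FPKM values. With those counts and gene lengths, the FPKM values imply a divisor per library of 16.7 to 18.7 in units of 1e+06. The counted reads per library were 14053307 to 17150089, so the divisor is not their total, and its definition was not given in the sources used here. The submitters' processing notes name HISAT2, StringTie and mm9, but 98.3% of gene positions in the table equal those of GENCODE M21 (GRCm38), which was used for positions and sequences. The counter and its strand setting were not given in the sources used here. FPKM was used for levels between genes and counts for tests.

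Counts were filtered with filterByExpr, TMM-scaled and compared in edgeR 4.0.16 (R 4.3.3) by a quasi-likelihood test (two-sided, genotype as the only term), and called at a Benjamini-Hochberg adjusted p under 0.05. Intervals used the fit's total degrees of freedom. In simulated data for this comparison, 97.5% of 197 genes changed 4-fold were recovered among 15571, with 11 false calls. Every simulated gene had the same dispersion (0.0445). The rate therefore does not apply to smaller changes or to genes as variable as Trpm2 and Trpm3. DESeq2 1.42.0, limma 3.58.1 (voom, and trend on log2(FPKM + 1) and log2(FPKM + 0.1)), other scalings and filters, and leaving out each library were alternatives. Correlations used log2 CPM with a prior count of 2.

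The members and lists were chosen with earlier results of these data known. Named genes were the members, the other TRPM genes, up to 5 genes per list at an adjusted p under 0.05 (otherwise the smallest p), the 3 best correlates of each member other than predicted genes, overlapping genes, and markers where their list's sum is given. Replicate numbers shared by both genotypes came from different mice, and deviations of same-numbered libraries correlated at 0.0641 (number 1) and -0.0120 (number 2), so libraries were not paired. A further list, of genes that regulate TRPM channels, is not reported here.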

Additional observations from a re-analysis of the deposited data

How the results depend on the processing

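Trpm4 stayed below 0 (-0.55 to -0.22) and Trpm6 (0.32 to 0.90) and Trpm7 (0.30 to 0.50) above 0 on the log2 scale in all 17 alternatives, and Trpm3 stayed below 0 (-2.34 to -0.040) in the 16 that fitted it. Adjusted p ranged from 0.112 to 0.427, 0.0461 to 0.661, 0.0515 to 0.315 and 0.0924 to 0.896, respectively. Leaving out 1 library moved Trpm2 between -0.024 and 1.61, with its sign reversed at -0.024 without WT replicate 1 and -0.0064 without WT replicate 2, and it could not be fitted with the replicate block or the mean CPM filter. Leaving out 1 library gave 0 to 1 members called (1 without KO replicate 2), 160 to 819 genes higher and 470 to 1240 lower, against 750 and 1152. With the replicate block, over the 4 libraries that share numbers, 313 genes were higher, 602 lower and 0 members called. Without a filter 1262 genes were higher. Both of these settings change the libraries or genes tested. Per base of principal transcript (chosen after seeing the data), WT and Trpm2-/- shares were 24.7% and 15.6% for Trpm4, 6.08% and 7.92% for Trpm6, and 67.7% and 75.3% for Trpm7. With 3 kidneys per genotype, the spread between them limits all 5. Among Trpm2-/- libraries the coefficient of variation exceeded that from counting for each member (for Trpm6, 31.2% against 7.93%). Among WT libraries it did so for each member except Trpm4, narrowly for Trpm3 (32.3% against 29.3%).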
